A study of Mus musculus with 35 samples.

Results

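Oxidative phosphorylation takes place in the inner mitochondrial membrane, where the respiratory complexes pass electrons from NADH and succinate to oxygen and pump protons, and complex V, the ATP synthase, uses the proton gradient to make ATP. Complex I oxidises NADH, complex II is succinate dehydrogenase, complex III passes electrons to the soluble carrier cytochrome c, and complex IV, cytochrome c oxidase, hands them to oxygen. Resting hematopoietic stem cells are known for a low use of respiration and a high use of glycolysis. The nuclear genes of these complexes were taken from the array annotation by symbol, each with its probe set of highest mean level over the 35 arrays. This gave 73 genes of the 8251 that the annotation names by a single symbol. They were 29 genes of complex I, 2 complex I assembly factors (Ndufaf1 and Ndufaf4), 4 genes of complex II, 8 of complex III, 15 of complex IV, 14 of complex V and cytochrome c itself (Cycs).

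Transcript levels had been measured on Affymetrix MG-U74Av2 arrays in bone marrow cells of C57Bl/6 mice, CD45.1 and 7 to 9 weeks old by the study's methods, with no agent given to any group. Side population (SP) cells, Sca-1+ and Gr-1- and marked by efflux of the dye Hoechst, were sorted from the lower part (LSP) or the upper part (USP) of the SP tail, and CD3+ CD8+ T lymphocytes of the marrow (CD8) served for comparison. Each of these groups had 3 samples. For a sample, the products of 4 separate amplifications, from 10 cells apiece, were pooled and run on 2 arrays. From the tip of the SP tail came 12 single cells (SC). Another 5 samples were single-cell equivalents (SCE), which were aliquots of 1 lysate of 40 SP cells. Each SC and SCE was amplified and run on 1 array. Labels gave male mice for LSP, CD8, SC and SCE and no sex for USP. The methods describe marrow taken from 1 mouse for such experiments, and nothing in the labels says which samples came from separate animals, so p-values measure the spread between these samples and may not hold any spread between mice.

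The sorted populations carried the transcripts of their labels. All 7 T cell genes on the array passed as lower in SP than in CD8, 6 of 7 tested genes of stem and SP cells passed as higher, and Kit was at the floor throughout. Of the 12 ten-cell SP arrays, 9 held 24.5% to 32.1% negative values, whereas the other arrays, those of CD8 included, held none, so this property of the arrays is partly confounded with SP against CD8. Ten-cell arrays had 14% to 18.7% of all probe sets at a log2 level of 9 or more. A level stands for a whole sample, so fewer cells with a transcript and fewer transcripts per cell cannot be told apart in ten-cell samples.

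Promoters were examined because nuclear genes of the respiratory complexes are known targets of the transcription factors NRF1, GABPA (of the ETS family) and YY1. RefSeq promoters (GRCm38.p6, 250 bases before to 50 bases after the start) were found for 59 of the 73 genes. The core of the NRF1 motif, CGCANGCG, lay on either strand in 22 of 59 (37.3%), against 9.22% of the 27025 genes with a promoter. The ETS core CGGAAG lay in 28 (47.5%, against 18.8%) and the YY1 motif AAGATGGC in 8 (13.6%, against 3.19%). These are matches of letters and not measurements of binding. The promoters below are those of Cox6b2 and Atp5e, which passed as higher in SP, of Cycs, and of Uqcr10, a complex III gene under the detection level in some single cells, with motif matches in capitals.
Atp5e (chr2:174464052-174464351, minus strand): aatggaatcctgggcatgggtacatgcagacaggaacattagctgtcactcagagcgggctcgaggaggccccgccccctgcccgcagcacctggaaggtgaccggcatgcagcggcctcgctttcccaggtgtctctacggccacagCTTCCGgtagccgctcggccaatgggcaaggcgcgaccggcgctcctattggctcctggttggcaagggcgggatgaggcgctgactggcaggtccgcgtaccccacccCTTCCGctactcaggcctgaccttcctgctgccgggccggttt
Cox6b2 (chr7:4753045-4753344, minus strand): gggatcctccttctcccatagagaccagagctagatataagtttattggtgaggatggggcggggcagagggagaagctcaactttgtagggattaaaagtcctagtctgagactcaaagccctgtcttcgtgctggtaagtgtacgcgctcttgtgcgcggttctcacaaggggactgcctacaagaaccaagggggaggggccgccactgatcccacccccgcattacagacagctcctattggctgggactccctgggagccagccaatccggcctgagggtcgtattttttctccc
Cycs (chr6:50566520-50566819, minus strand): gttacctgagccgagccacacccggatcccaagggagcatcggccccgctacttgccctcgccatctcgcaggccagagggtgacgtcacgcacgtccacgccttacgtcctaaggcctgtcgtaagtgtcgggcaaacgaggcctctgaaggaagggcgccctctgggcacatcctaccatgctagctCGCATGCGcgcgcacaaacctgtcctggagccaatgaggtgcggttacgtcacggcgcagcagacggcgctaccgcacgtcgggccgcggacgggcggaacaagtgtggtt
Uqcr10 (chr11:4704295-4704594, minus strand): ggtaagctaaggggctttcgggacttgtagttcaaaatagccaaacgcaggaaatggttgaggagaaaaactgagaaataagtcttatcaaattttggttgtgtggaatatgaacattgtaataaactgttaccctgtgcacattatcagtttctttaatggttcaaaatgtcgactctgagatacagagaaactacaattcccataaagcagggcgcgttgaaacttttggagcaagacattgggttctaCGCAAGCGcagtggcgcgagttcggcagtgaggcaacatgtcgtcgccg
Atp5e held 2 ETS cores, whose first bases lay at positions -102 and 8 from the start, both read on the opposite strand. Cycs held an NRF1 core at -61 that matched on both strands, Uqcr10 held an NRF1 core at position 2, and the window of Cox6b2 held none of the 3 motifs. Cyc1, which passed as lower in SP, is named only.

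Most of these genes were above background in ten-cell samples. Of the 73, 39 lay above the floor, a log2 level of 7 to which lower ten-cell values were set, on all 18 ten-cell arrays, which is 53.4% against 9.56% of all probe sets. The choice of each gene's highest probe set raises such shares: by the same choice, 11.7% of all 8251 genes lay above the floor on all 18. At the floor on all 18 were 10: Ndufa1, Ndufa10, Ndufa12, Ndufc2 and Ndufs4 of complex I, Sdhd of complex II, and Cox5a, Cox6b1, Cox8a and Cox8b of complex IV. Cox8b is known as a heart and muscle isoform, whereas Cox5a, Cox6b1 and Cox8a are subunits of most tissues. The study's authors write that some probe sets of such arrays give little information, so the floor does not show absence. The other 63 genes were tested, among 6823 probe sets that exceeded the floor on 1 or more ten-cell arrays.

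SP against CD8 set stem cells against mature lymphocytes, and few respiratory genes passed. By limma with an adjusted p under 0.05, 2 of 63 were higher in SP (Cox6b2 and Atp5e) and 1 was lower (Cyc1), beside 2.83% of all 6823 probe sets higher and 3% lower. These counts lay near the background. At an unadjusted p under 0.05, 8 were higher and 10 lower, beside 9.13% and 9.32% of all probe sets, and the median difference was 0.02 on the log2 scale against 0.04 over all probe sets. The groups did not overlap for 4 genes higher in SP and 7 lower, beside 5.53% and 5.77% of all probe sets.

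Cox6b2 is known as the testis isoform of subunit VIb of cytochrome c oxidase. Its log2 level was 10.89, 10.22 and 10.52 in LSP samples A, B and M, 10.67, 10.13 and 10.72 in USP samples N, O and Z, and 7.19, 7 and 8.19 in CD8 samples B, C and D. Every SP sample lay above every CD8 sample, LSP and USP overlapped, and CD8 sample C was at the floor. The mean was 10.52 ± 0.30 in SP (SD, n = 6) and 7.46 ± 0.64 in CD8 (SD, n = 3), a difference of 3.06 ± 0.31 (SE), or 8.36-fold, with an adjusted p of 0.00161 in limma. With CD8 at or near the floor this size depends on it: the difference was 3.40 with a floor of 6 and 2.46 with a floor of 8, and passed with both. The suffix of this probe set marks probes that other transcripts may share. Of the other 2 probe sets of Cox6b2 above the floor, 1 differed by 1.36 with CD8 at the floor (adjusted p = 0.205, limma) and 1 by 0.14 (adjusted p = 0.711), so the call rests on 1 probe set. The isoform of most tissues, Cox6b1, was at the floor throughout by its 1 probe set. Whether that probe set detects the transcript was not tested, so the levels of the isoforms cannot be compared.

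Atp5e, the epsilon subunit of the ATP synthase stalk, stood at 11.79, 12.04 and 12.56 in LSP, at 12.10, 11.99 and 12.01 in USP and at 10.61, 10.48 and 10.75 in CD8. No SP sample came within the range of CD8, and the ranges of LSP and USP overlapped. The difference was 1.47 ± 0.17 (SE), or 2.77-fold, with an adjusted p of 0.00365 in limma. With arrays of positive values alone, which leave SP with 3 arrays of 2 samples, the difference was 1.29 for Atp5e (adjusted p = 0.0270) and 3.04 for Cox6b2 (adjusted p = 0.0360).

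Cyc1, the heme-bearing cytochrome c1 of complex III, was the gene that passed as lower in SP, and its values split within SP. It stood at 9.52, 9.49 and 9.5 in LSP, at 12.05, 10.85 and 11.21 in USP, and at 12.19, 11.71 and 12.22 in CD8. All 3 LSP samples lay below every USP and CD8 sample, while USP and CD8 overlapped. SP differed from CD8 by -1.60 ± 0.27 (SE), 3.04-fold, with an adjusted p of 0.0171 in limma. The call was lost with those arrays of positive values alone (-1.69, adjusted p = 0.227), without CD8 sample B (-1.53), without CD8 sample D (-1.51) and with all probe sets tested.

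**Figure D1:**
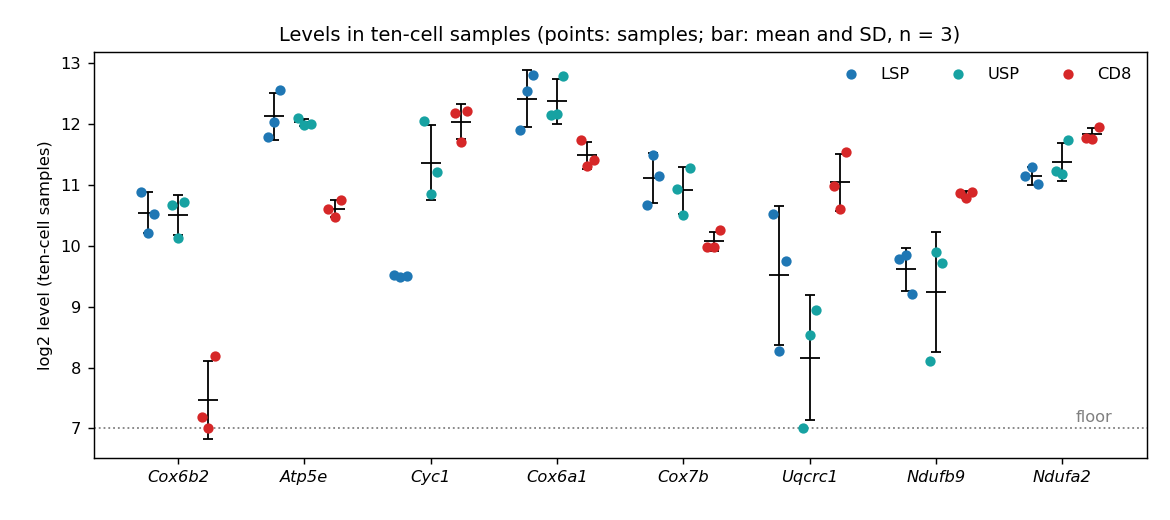
Log2 levels of 8 genes in the ten-cell samples, where each point is a sample (mean of 2 arrays), each bar the mean and SD of 3 samples of LSP, USP or CD8, and the line the floor of 7. Cox6b2 and Atp5e lie above CD8 in all 6 SP samples, and the 3 LSP samples of Cyc1 lie below all its others.

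In complex I, 17 of 24 tested genes had a lower mean in SP, with a median difference of -0.45, and none passed, while 41.4% of all probe sets had a lower mean in SP and 58.6% a higher one. Ndufb9, an accessory subunit, stood at 9.79, 9.84 and 9.21 in LSP, 8.11, 9.90 and 9.72 in USP, and 10.87, 10.78 and 10.88 in CD8 (-1.42 ± 0.40 SE, adjusted p = 0.107, limma). Ndufa2, also accessory, ran from 11.01 to 11.73 in SP and from 11.76 to 11.96 in CD8 (-0.57 ± 0.15, adjusted p = 0.0875, limma). Neither gene overlapped between SP and CD8, and the same held for Ndufa5, Ndufb11 and Ndufv2. Ndufv2, a core subunit that binds an iron-sulfur cluster, had the lowest difference of the complex, at -1.92 ± 0.86 (adjusted p = 0.304, limma), with SP samples from 7 to 10.46 and CD8 samples from 10.93 to 11.12. Its partner Ndufv1, which carries the site of NADH oxidation, had the highest: its level was 10.65, 10.68 and 10.14 in LSP, 11.92, 12.15 and 9.67 in USP, and 7, 10.04 and 9.62 in CD8 (1.98 ± 0.82, adjusted p = 0.261, limma). CD8 sample B was at the floor for Ndufv1, CD8 sample C lay within the range of SP, and the difference was 1.04 without CD8 sample B. The assembly factors Ndufaf1 and Ndufaf4 differed by 0.27 ± 0.57 and 0.36 ± 1.17.

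In complex II, which also serves the tricarboxylic acid cycle, no gene passed. The flavoprotein Sdha differed by -1.11 ± 0.67 (adjusted p = 0.485, limma), the iron-sulfur subunit Sdhb by 0.77 ± 0.89 and the membrane anchor Sdhc by 0.31 ± 0.73. Of 8 complex III genes, 6 had lower means in SP, with a median of -0.16. Its core proteins had differences of opposite sign. Uqcrc1 stood at 10.53, 8.28 and 9.75 in LSP, 7, 8.53 and 8.95 in USP, and 10.98, 10.61 and 11.54 in CD8 (-2.20 ± 0.61, adjusted p = 0.0996, limma). Uqcrc2 stood at 10.42, 11.13 and 10.76 in LSP, 11.01, 9.49 and 11.94 in USP, and 8.51, 10.05 and 9.47 in CD8 (1.45 ± 0.57, adjusted p = 0.234, limma). The groups did not overlap for Uqcrc1 and overlapped for Uqcrc2.

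In complex IV, 7 of 11 means were higher in SP and 4 lower, with a median of 0.03, and Cox6b2 alone passed. Cox6a1, the form of subunit VIa outside heart and muscle, ran from 11.90 to 12.81 in SP and from 11.31 to 11.73 in CD8 (0.91 ± 0.25, adjusted p = 0.0981, limma). Cox7b ran from 10.50 to 11.49 in SP and from 9.98 to 10.26 in CD8 (0.94 ± 0.23, adjusted p = 0.0733, limma). Cox7a2l, known as a factor of respiratory supercomplexes, ran from 9.92 to 11.86 in SP and from 11.96 to 12.16 in CD8 (-1.07 ± 0.37, adjusted p = 0.170, limma). In none of these 3 did SP and CD8 overlap. Among isoforms, Cox7a2 of most tissues ran from 10.58 to 12.37, whereas Cox7a1 of heart and muscle was at the floor in all samples but USP sample Z (11.92) and CD8 sample D (10.04). Cox6a2, another muscle form, reached at most 7.45, with all CD8 samples at the floor.

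In complex V, 12 of 14 means were higher in SP (58.6% of all probe sets), with a median of 0.22, and Atp5e alone passed. For Atp5g1, Atp5g2, Atp5j2 and Atp5pb all CD8 samples were at the floor, so the mean in SP could not be lower. Atp5a1, the alpha subunit, was at 11.79 ± 0.33 in SP (SD, n = 6) and 11.71 ± 0.18 in CD8 (SD, n = 3), and Atp5c1, the gamma subunit, differed by 0.11 ± 0.35 (SE). Another probe set of Atp5c1 differed by -1.47 ± 0.58 (SE, adjusted p = 0.236, limma). Atp5j2, a subunit of the membrane part, was at 8.50, 7.79 and 9.55 in LSP, at 8.88, 8.71 and 7 in USP and at the floor in all CD8 samples. It did not pass (adjusted p = 0.205, limma), and USP sample Z was at the floor too, so no fold is given. Atp5d, the delta subunit, differed by -0.09 ± 0.27 with its chosen probe set and by 1.66 ± 0.35 with another (adjusted p = 0.0415, limma). Of the genes of subunit c, which forms the rotor ring, Atp5g1 reached at most 7.11 and Atp5g2 at most 8.09. Cycs, the carrier between complexes III and IV, was at 10.13 ± 0.89 in SP and 9.03 ± 0.98 in CD8 (1.09 ± 0.59 SE, adjusted p = 0.419, limma), and the difference was 0.54 without CD8 sample D.

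**Figure D2:**
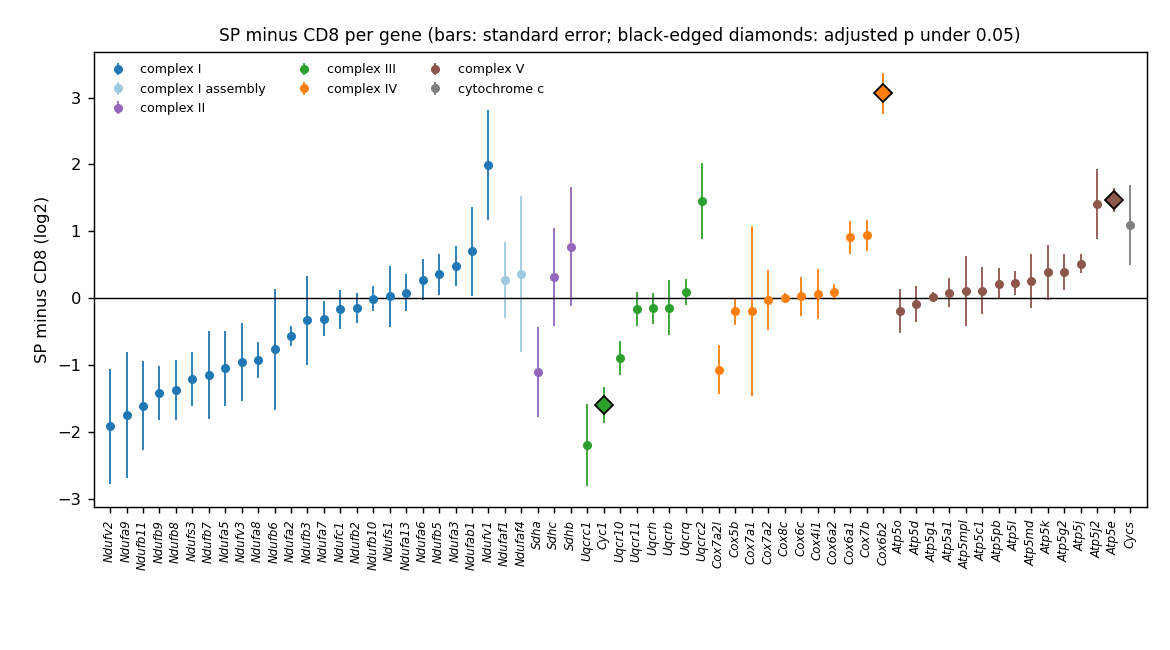
SP minus CD8 on the log2 scale for the 63 tested genes, ordered by complex and then by difference, with bars of 1 standard error and black-edged diamonds for an adjusted p under 0.05. In complex I, 17 of 24 genes lie under 0. In complex V, 12 of 14 lie above 0, where 58.6% of all probe sets lie. Of these, Atp5g1, Atp5g2, Atp5j2 and Atp5pb had all CD8 samples at the floor and could not lie under 0. Cox6b2, Atp5e and Cyc1 carry the diamonds.

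Samples of CD8 lay closer together than samples of SP. Over the 39 genes above the floor on all 18 arrays, the median SD between the 3 samples was 0.41 in LSP, 0.59 in USP and 0.21 in CD8, and CD8 had the lowest SD in 27 of 39 (69.2%). Over all 1188 such probe sets the medians were 0.57, 0.58 and 0.32, and CD8 had the lowest SD in 58.8%. By complex this was so for 14 of 17 genes of complex I, 3 of 6 of III, 5 of 6 of IV, 5 of 9 of V and not for Cycs. Duplicate arrays of a sample differed by a median of 0.15 for the 39 genes. These are descriptions with no test, the arrays with negative values are all of SP, and their part in the spread was not tested.

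LSP against USP set cells of stronger against weaker dye efflux, and no respiratory gene passed. In limma 0 of 63 genes were higher and 0 lower, beside 0.0293% of all probe sets higher in LSP and 0.0733% lower, and at an unadjusted p under 0.05, 3 were higher and 1 lower, beside 3.18% and 2.81% of all probe sets. The groups did not overlap for the same 3 genes and the same 1, beside 3.09% of all probe sets higher and 2.89% lower. Ndufb8, an accessory subunit of complex I, stood at 10.34, 11.20 and 11.84 in LSP and 10.23, 8.59 and 9.80 in USP (1.59 ± 0.51 SE, adjusted p = 0.690, limma). Ndufb10, also accessory, stood at 10.50, 10.73 and 11.20 against 10.25, 10.27 and 10.11 (adjusted p = 0.752, limma). Atp5j, a stalk subunit of complex V, stood at 9.56, 9.90 and 9.63 against 9.32, 8.94 and 9.44 (adjusted p = 0.757, limma). The lowest LSP and highest USP samples of Ndufb8 were 10.34 and 10.23. The differences largest in size in complexes II, IV and V were those of Sdhb (0.67 ± 1.03), Cox7a1 (-1.64 ± 1.47, at the floor in all LSP samples) and Atp5c1 (0.83 ± 0.40), and in complex I that of Ndufb7 (-1.71 ± 0.75), none past the test.

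The gene lower in LSP was Cyc1, 3.64-fold apart at the levels given above (-1.87 ± 0.31 SE, adjusted p = 0.141 in limma). With the 18 arrays in a limma mixed model, its adjusted p was 0.00518. That model used the duplicate arrays of a sample without averaging (correlation 0.918) and added no samples. The other probe set of Cyc1, near the floor, differed by 0.05 between LSP and USP. The 3 erythroid markers on the array summed to intensities of 150 to 430 in LSP, 1708 to 2470 in USP and 0 to 2198 in CD8, with Alas2 at the floor in SP and Klf1 above it on 1 array. The 7 granulocyte markers summed to 753 to 3454 in LSP, 2635 to 8645 in USP and 0 to 452 in CD8, with Mpo and Elane at the floor throughout, although the sort had taken Gr-1- cells. The 4 macrophage markers summed to 822 to 1133 in LSP, 1457 to 3289 in USP and 0 to 1032 in CD8, with Adgre1 and Csf1r at the floor. The part of such cells in the Cyc1 values was not tested.

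Many of these genes were detected in single cells, and no cell had all of them detected. A level under the detection level does not show that a transcript was absent. Each SC array detected, at a log2 level of 9 or more, 26 to 40 of the 73 genes (35.6% to 54.8%, median 50%), beside 9.61% to 12% of all probe sets on the same arrays, and SCE arrays detected 38 to 43. The fewest were in cells B (26), G (28) and H (29), and the most in cell I (40). The lowest 3 cells were B, D and H with detection at 8 and B, G and L with detection at 10, so cell B was among them at each level. Over the 12 cells, 11 genes were detected in every cell, 45 in some and 17 in none. That is 15.1% in every cell and 23.3% in none, against 1.48% and 66.1% of all probe sets. With 1 probe set per gene by the same choice, it was 1.31% and 59.3% of all 8251 genes, and 11.3% to 14.7% of those genes were detected per cell.

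**Figure D3:**
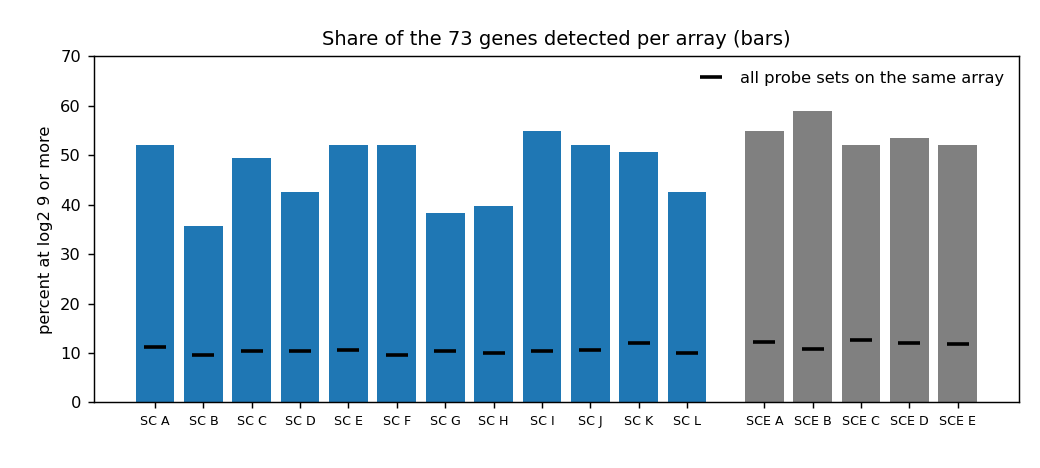
Percent of the 73 genes at a log2 level of 9 or more on each single-cell (SC, blue) and lysate aliquot (SCE, grey) array, with black marks for the percent of all probe sets on that array. Cells B, G and H have the lowest bars at this level, at 26, 28 and 29 genes, and the marks stay between 9.61% and 12.6%.

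The 11 genes found in every cell were Ndufa2 of complex I, Uqcrh of complex III, Cox5b, Cox6a1, Cox6c and Cox7a2l of complex IV, and Atp5d, Atp5e, Atp5l, Atp5md and Atp5mpl of complex V. Cox6c ran from 12.79 to 13.37 over the 12 cells (median 13.03, SD 0.17) and from 12.67 to 13.06 over the 5 SCE (SD 0.16). The probe sets of Cox6c, Cox6a1, Atp5d and Atp5md, like that of Cox6b2, carry the suffix for probes that other transcripts may share. Other probe sets of Cox6c were at the floor on all 18 ten-cell arrays and detected in 1 and 0 of 12 cells. Atp5e ran from 11.44 to 12.89 in cells (median 12.19, SD 0.44) and from 12.01 to 12.31 in SCE (SD 0.11). Cells thus lay about as close together as aliquots for Cox6c and farther apart for Atp5e. Cox6b2, the other gene that passed as higher in SP, was at 12.10, 11.36, 12.09 and 13.48 in cells A, D, J and K and at 7.75 or less in the rest. It was detected in 3 of 5 SCE. These are values of the probe set with probes that other transcripts may share, and another probe set of Cox6b2 was detected in 8 of 12 cells. The 17 genes found in no cell were the 10 at the floor in ten-cell samples and Sdha, Cox6a2, Cox7a1, Cox8c, Atp5g1, Atp5g2 and Atp5j2. Cycs was detected in 8 of 12 cells, with a lowest level of 6.05, a median of 9.91 and a highest of 11.21, and in 2 of 5 SCE.

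Another 12 genes were detected in all 5 SCE and lay under 9 in 1 to 5 of the 12 cells. Over the 23 genes detected in all 5 SCE, 27 of 276 single-cell values (9.78%) were under 9, against 18.7% over all 441 such probe sets. Ndufc1, a small accessory subunit of complex I, was at 12 to 13.36 in SCE, at 9.23 to 12.50 in 7 cells and at 3.49 to 6.15 in cells B, D, F, G and I. Its cells thus fell into ranges apart from each other. Uqcr10, a small subunit of complex III, was at 12.34 to 13.18 in SCE, at 9.78 to 13.62 in 9 cells and at 4.15, 4.22 and 8.40 in cells B, G and H. Uqcrq, another small subunit of that complex, was at 10.69 to 12.86 in SCE, at 9.64 to 13.11 in 9 cells and at 6.55, 4.42 and 3 in the same cells B, G and H. This pair of the 66 that the 12 genes form was noticed after the values were seen and has no test. Cyc1 was at 9.42 to 12.97 in SCE and at 7.32 to 8.56 in cells B, D, F, H and L, of which B, D and F were also low for Ndufc1.

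**Figure D4:**
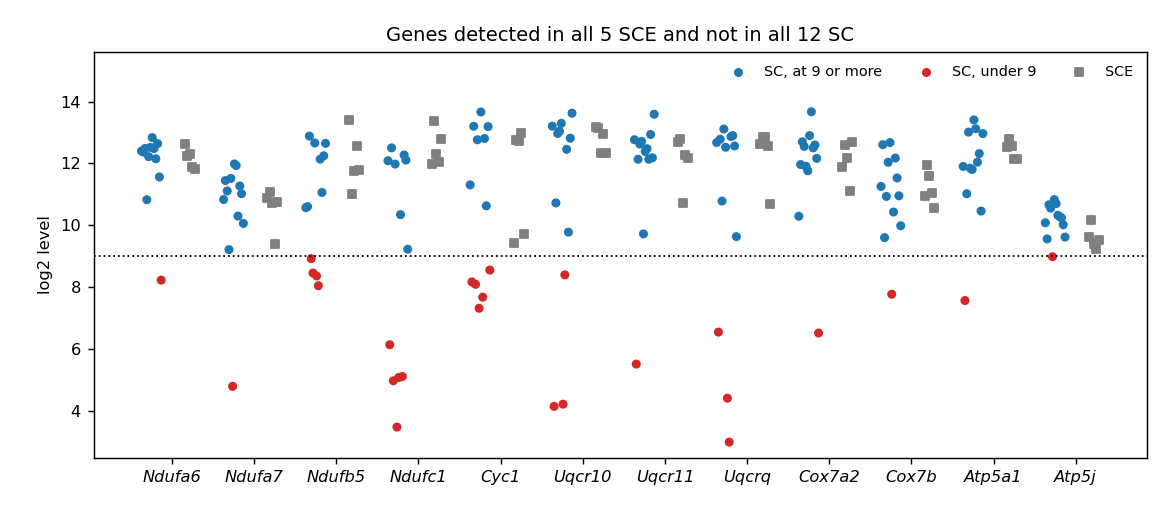
Log2 levels of the 12 genes detected in all 5 SCE (grey squares) and under the detection level of 9 (dotted line) in at least 1 of the 12 single cells (red points, with blue points at 9 or more). Ndufc1, Uqcr10 and Uqcrq have cells at 3 to 6.55, far under their SCE, whereas the low cell of Atp5j, at 8.99, lies at the line.

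Cell B had the fewest of these genes detected. It detected 9 of 29 complex I genes, 2 of 8 of complex III (Uqcrb and Uqcrh), 7 of 15 of complex IV and 8 of 14 of complex V. It alone was low for Uqcr11 (5.52, against 10.73 to 12.80 in SCE) and Atp5a1 (7.57, against 12.13 to 12.80). It was also the array with the lowest share of all probe sets at 9 or more, and it missed 99 of the 441 probe sets found in all SCE, against 56 to 93 in the other cells. Cell H detected 7 of 29 complex I genes, the fewest of the 12 cells, and 10 of 14 of complex V. Over the cells, complex I counts ran from 7 to 16 and complex V counts from 7 to 10.

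**Figure D5:**
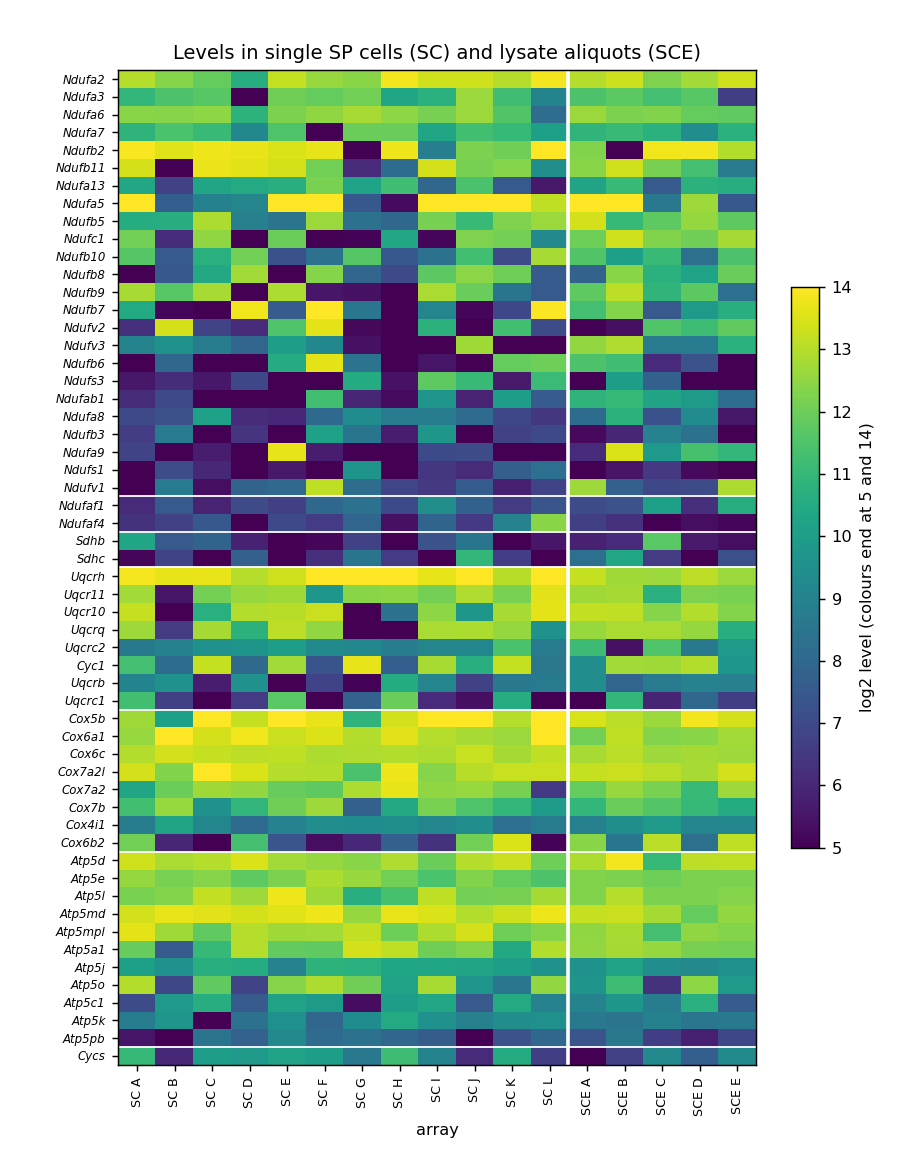
Log2 levels (colour, ending at 5 and 14) of the 56 genes detected in at least 1 single cell, by complex (white lines) in rows, on 12 single-cell (SC) and 5 lysate aliquot (SCE) arrays in columns. Cox6c (12.79 to 13.37) and Atp5e (11.44 to 12.89) stay bright in all cells, and Ndufc1, Uqcr10 and Uqcrq alternate between bright and dark cells.

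The spread between cells was set against the spread between aliquots, which share 1 source of RNA. By a 1-sided permutation test that enumerated 6188 splits of the 17 arrays, 0 of 56 genes passed after adjustment over all probe sets, beside 0.546% of 4215. At an unadjusted p under 0.05 there were 15 of 56, beside 12.5%. Deviations were taken from each group's own median, so the middle of the 5 SCE values always had a deviation of 0. Deviations also tend to be smaller in the smaller group. Probe sets entered only through detection in at least 1 single cell, whatever their level in SCE, which favours those with a high cell. The p-values are therefore approximate and lean toward wider spread in cells, and both unadjusted shares may be too high. Ndufc1 had a p of 0.00097 (adjusted p = 0.102, permutation test), with SDs of 3.53 in cells and 0.57 in SCE. The biological proportion estimates the share of the variance in cells beyond that in aliquots. Both variances were taken around 1 common mean, so a difference in mean between cells and aliquots enters it too. Ndufab1, for example, had a proportion of 0 with SDs of 2.34 in cells and 1.10 in SCE. The median was 0.372 over the 56 genes and 0.355 over all 4215 probe sets. For the genes it was 0.595 with separate means for cells and aliquots and 0.585 without SCE C. By complex the median was 0.315 in complex I, 0.701 in III, 0.753 in IV and 0.606 in V, and 0 in complex II, the assembly factors and Cycs. It was highest for Uqcr10 and Atp5k (both 0.990) and Ndufc1 (0.989). For Atp5k, a small subunit of complex V, cell C was at 3.35, the other cells at 7.95 to 10.51 and the aliquots at 8.45 to 8.97.

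Mean levels of SC and SCE were compared, although this cannot fully check whether aliquots stand for the mean cell. Log2 levels of a gene that varies between cells average lower over the cells than in their pooled RNA. The 5 SCE share 1 lysate, so p-values hold no spread between lysates. In limma 0 of 57 genes passed, beside 0% of 4659 probe sets higher in SC and 0.0429% lower, and at an unadjusted p under 0.05, 1 was higher and 4 were lower, beside 1.76% and 3.93%. Of the 57 means, 37 were lower in SC and 20 higher. In complex I, 19 of 24 means were lower in SC (53.3% of all probe sets), with a median of -0.50, against -0.09 over all probe sets. Complex V leaned the other way, with 8 of 11 means higher (46.7% of all probe sets) and a median of 0.10. The 4 genes lower at an unadjusted p under 0.05 in limma, all of complex I, were Ndufa9, Ndufab1, Ndufc1 and Ndufv3. Ndufa9 was at 13.65 in cell E and at 7.05 or less in the other 11 cells, and at 6.10, 13.47, 9.88, 11.38 and 10.96 in SCE A to E (-4.63 ± 1.40 SE, adjusted p = 0.510, limma). Ndufab1, the mitochondrial acyl carrier protein, was detected in 3 of 12 cells and 4 of 5 SCE (-3.20 ± 1.06, adjusted p = 0.590, limma). Ndufaf4, the 1 gene higher in SC at that level, was at 12.42 in cell L (2.18 ± 1.04, adjusted p = 0.864, limma). It was under 9 in the other 11 cells and all SCE. Probe sets were tested if at 9 or more on at least 1 SC or SCE array, so Ndufaf4 entered only through cell L.

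Other mitochondrial genes were counted in the same fits. Of 13 tested genes of the tricarboxylic acid cycle and pyruvate dehydrogenase, 0 passed in SP against CD8, with a median difference of 0.35. Of 7 carriers and porins, 1 passed as higher in SP: Slc25a1, the citrate carrier, averaged 9.83 in SP with all CD8 samples at the floor (adjusted p = 0.0168, limma). Of 6 assembly and coenzyme Q genes, Coq9 passed as higher (adjusted p = 0.0107, limma) and Lrpprc, which stabilises mitochondrial mRNA, as lower (adjusted p = 0.0114, limma), each against values at or near the floor. Coq9 was at 8.67, 8.67 and 8.29 in LSP and at most 7.12 in USP and CD8, so its call came from LSP. Lrpprc was at most 7.63 in SP and at 8.83, 8.29 and 9.28 in CD8. Coq9 was also the 1 gene of these lists to pass in LSP against USP, as higher in LSP (adjusted p = 0.0197, limma). Of 7 regulators, Tfb2m, a mitochondrial transcription factor, passed as higher in SP with CD8 at the floor (adjusted p = 0.0211, limma), and Tfam and Ppargc1a were at the floor throughout. No gene of these lists was detected in all 12 single cells.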

How the data were processed

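The deposited values, for 12488 probe sets on 35 arrays, were linear intensities, scaled by the authors to like 2% trimmed means (250.1 to 250.4), from transcript 3′ ends amplified by global single-cell RT-PCR. The methods name MAS 5.0 for the raw intensities and RMA for expression levels, but the deposited values, linear and partly negative, are not RMA values. After 66 control probe sets were left out, 12422 remained, of which 10833 carried 1 gene symbol, 396 several and 1193 none. The genes had 101 probe sets with 1 symbol, 10 more with several symbols were left out, and 21 genes had more than 1 probe set. The genes and lists were chosen with earlier results of these data known. Genes named with values were those past a test, those with the most extreme values in each complex, tissue isoforms and genes detected in some single cells.

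Ten-cell values were floored at 7 on the log2 scale and duplicate arrays averaged. All 9 samples entered 1 limma 3.58.1 model (R 4.3.3) of 3 groups, with SP as the mean of LSP and USP, and p-values were adjusted by Benjamini-Hochberg over 6823 probe sets. SC and SCE values were taken as log2 without a floor, with a detection level of 9, and compared by limma over 4659 probe sets. The spread test permuted absolute deviations from group medians, and the biological proportion was fitted by maximum likelihood with 1 mean (Python 3.11.15, numpy 2.4.6, scipy 1.17.1). The steps were tested on simulated data. The number of arrays limits the precision. Alternatives were another floor, filter, normalization or detection level, a mixed model, arrays of positive values alone, a replicate block and leaving out each sample.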

Additional observations from a re-analysis of the deposited data

Results flagged for a closer look

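Among the 5 SCE arrays, 7 of 52 genes had 1 aliquot far from the other 4, where the gap to the nearest aliquot over the whole range exceeded Dixon's 95% limit for 5 samples. Chance flags about 1 in 20 groups of normally distributed values, which these levels need not be. The share over all probe sets was not computed, so 7 of 52 cannot be read as an excess in these genes. Low aliquots were those of Ndufa3 (E at 6.67, others 11.30 to 11.74, ratio 0.914), Uqcrq (E at 10.69, others 12.58 to 12.86, ratio 0.868), Ndufb2 (B at 4.88, others 12.29 to 13.85, ratio 0.826), Ndufa7 (D at 9.41, others 10.73 to 11.09, ratio 0.787) and Ndufa13 (C at 7.55, others 10.26 to 11.07, ratio 0.771). High aliquots were those of Sdhb (C at 11.68, others 5.35 to 6.07, ratio 0.886) and Atp5l (B at 13.02, others 12.23 to 12.36, ratio 0.836). These aliquots share 1 lysate.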

How the results depend on the processing

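Cox6b2 and Atp5e passed as higher in SP under all 17 alternatives, and Cyc1 passed as lower under 13. The shares of all probe sets that passed under each alternative are not given, here or for the spread test below. A change in these counts therefore cannot be read as particular to respiratory genes. The count of 2 higher genes became 6 with arrays of positive values alone and 5 in the mixed model, and ran from 2 to 4 as each sample was left out, with 4 without LSP sample A. The count of 1 lower gene became 3 with arrays of positive values alone (Ndufb9, Sdha and Uqcrc1), 4 in the mixed model and 0 with no filter, and ran from 0 (without CD8 sample B or D) to 5 (without USP sample Z), with 2 without USP sample N. With array number as a replicate block, 4 were lower in SP (Cyc1, Ndufb8, Ndufb9 and Uqcrc1) and 1, Cyc1, was lower in LSP (adjusted p = 0.00522, limma), as in the mixed model, where it was also 1. Both of these models used duplicate arrays without averaging, which adds no samples. Array numbers do not pair samples: deviations of same-numbered arrays correlated at -0.18 to 0.25 over 36 pairs.

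Sign changed for Ndufaf4 in SP against CD8 without CD8 sample D (-0.35) and LSP sample A (-0.17), up to 1.16 without CD8 sample C, and for Sdhb in LSP against USP without LSP sample M (-0.052), up to 1.44 without USP sample N. In the spread test, 1 gene passed with a floor of 7 (Ndufc1) and 1 after quantile normalization (Atp5k), and 0 to 1 as each SCE was left out: 1 without SCE A, B, C or E. The median biological proportion became 0.595 with separate means and ran from 0.368 to 0.585 (without SCE C). With detection at 8, 8 genes were in no cell and the median share per cell was 56.8%, and at 10 it was 43.2%. The causes were not tested. LSP against USP was not run on arrays of positive values alone, which leave 1 sample in each group. Deviations scaled for group size, an alternative chosen after seeing the data, gave 12 genes at an unadjusted p under 0.05 in the spread test. Without scaling there were 15. The scaling allows for the smaller deviations of the smaller group, and its share over all probe sets is not given.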
